A study of Mus musculus with 12 samples.

Results

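The 36 genes described here encode complement and coagulation factors that hepatocytes secrete into the blood plasma. They were taken as a named list of gene symbols, each matched to its row in the deposited table, and make up 36 of the 24421 genes listed there. The rule names genes and uses no measured value, although the list was drawn up with earlier results of these data known. It holds 17 complement genes, 18 genes of clotting, its brakes and fibrin removal, and Hgfac, the serine protease that activates hepatocyte growth factor. All 36 passed the filter on low counts and were tested.

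RNA was sequenced from tumour-free liver tissue of 12 male mice. They formed 4 groups of 3, which were LiK on the normal diet, LiK on ACR, LiKM on the normal diet and LiKM on ACR. ACR, an acyclic retinoid that has been studied against liver cancer, was mixed into the food at 0.06% from an age of 5 weeks, and all mice were killed at 4 months. The labels name the strains but none of their alleles, and they name no driver. From what is known of the study, LiKM livers carry what LiK livers carry and also have Mdm2 deleted in hepatocytes, a gene whose product marks p53 for breakdown. Mice of other strains were not analysed here. Each library comes from its own mouse, so the errors below include the variation between mice.

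Complement is a chain of plasma proteases and binding proteins that marks microbes and cell debris and can end in a pore, the membrane attack complex. Coagulation is a second protease chain in which thrombin turns soluble fibrinogen into fibrin, and several of its factors need a vitamin K dependent modification before they work. The liver makes most of these proteins, under liver factors such as HNF1, HNF4 and C/EBP. It raises fibrinogen and C3 in the acute phase response to interleukin signals, which act on fibrinogen through STAT3.

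Library totals ran from 10124813 to 18647156 counts. Levels are given as CPM, the counts of a gene relative to the library total, scaled with TMM factors, which correct for a shift in the bulk of the genes and ranged from 0.830 to 1.243. Hepatocyte markers were abundant in every library, with summed levels of 10 genes from 119475 to 167174 CPM in LiK and from 89435 to 102784 CPM in LiKM on the normal diet. On ACR the same sum ran from 149357 to 163434 CPM in LiK and from 121765 to 163530 CPM in LiKM. Mdm2 is counted over the whole gene, which checks no deletion of single exons. Its level ran from 21.6 to 25.8 CPM over the LiK libraries of both diets and from 29.0 to 67.2 CPM over those of LiKM. The daily clock genes differed between groups and between mice of a group. Dbp, a clock output factor, ran from 25.6 to 35.9 CPM in LiK fed the normal diet, from 136 to 139 CPM in LiK fed ACR, and from 3.25 to 74.0 CPM over the LiKM libraries. The third LiKM library on the normal diet and the second and the third on ACR stood apart from the other LiKM libraries in clock genes, and results are also given without these 3 libraries. The part of the clock genes in the differences below was not tested.

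Together the 36 genes took 3.30, 3.49 and 3.65% of all counts in the 3 LiK mice fed normally and 4.65, 4.55 and 3.85% in the 3 fed ACR. In LiKM they took 4.07, 3.65 and 3.29% without ACR and 4.72, 3.96 and 4.80% with it. The 3 LiK libraries on ACR lay above the 3 on the normal diet, while the LiKM libraries overlapped between diets. Per length of transcript, in CPM per kilobase of annotated exons in LiK without ACR, the fibrinogen gamma chain gene Fgg (1282 ± 81.9, SD, n = 3), the alpha chain gene Fga (1237 ± 133) and C3 (1234 ± 161) were the highest of the 36, and these levels did not differ beyond their spread. Masp1 was the lowest at 12.8 CPM per kilobase.

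**Figure D1:**
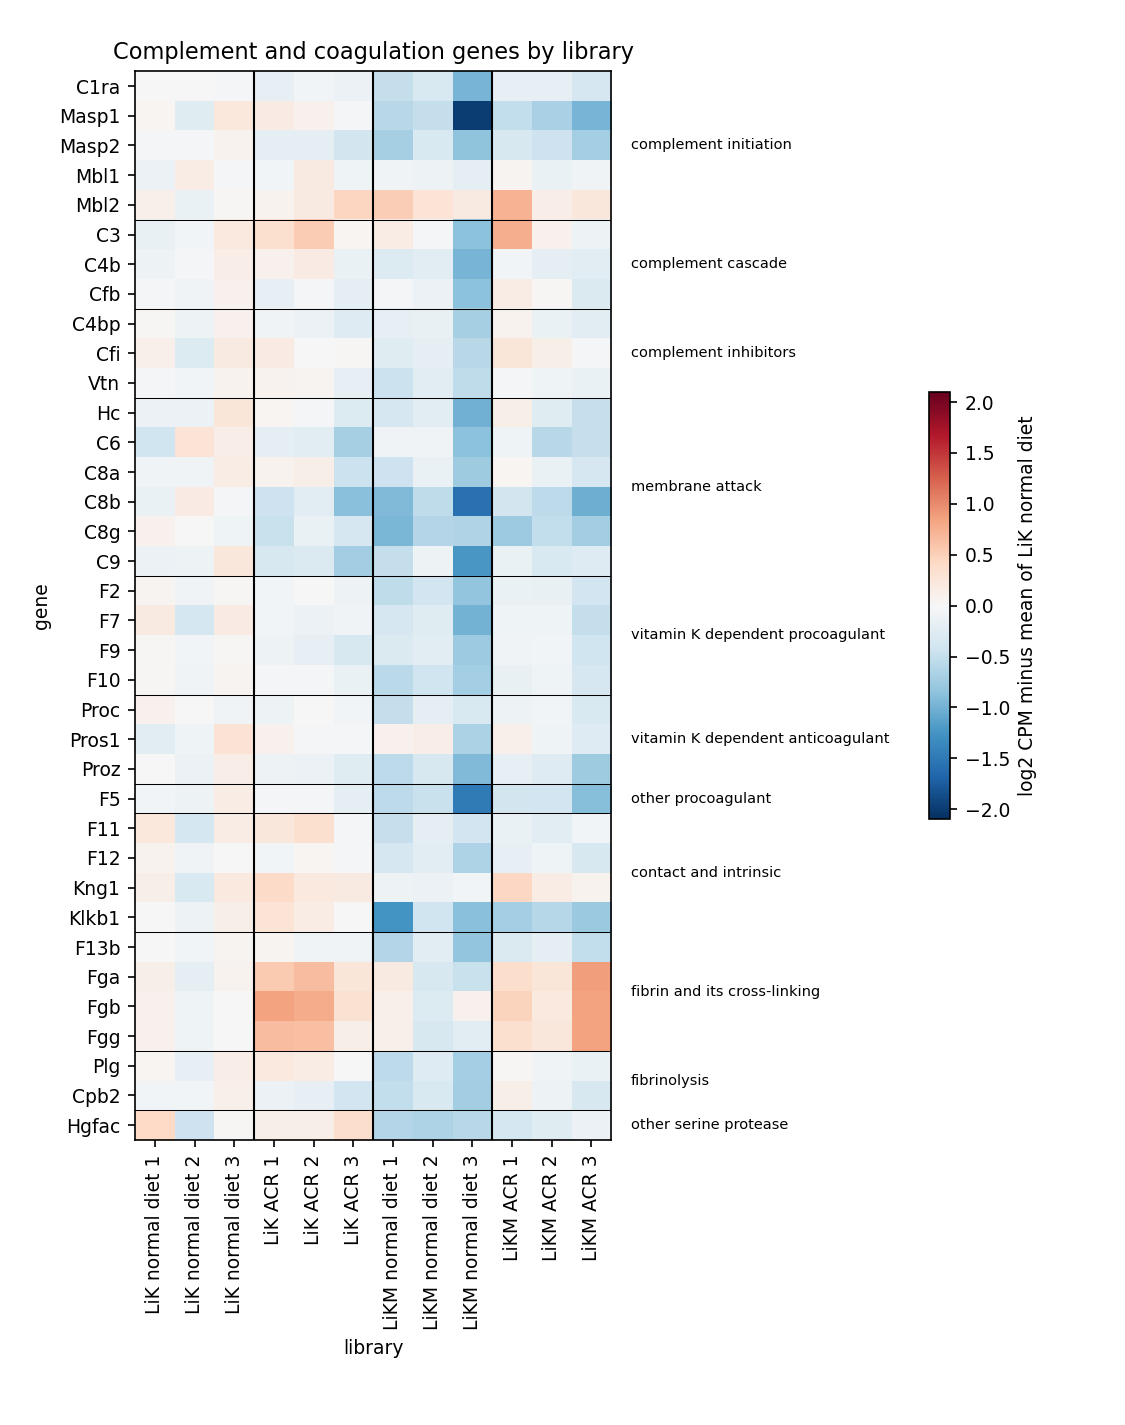
Level of each of the 36 genes (rows, by role) in each of the 12 libraries (columns, 3 per group), as log2 CPM minus the mean of the 3 LiK libraries on the normal diet. Blue is lower and red higher; with this TMM scaling most rows are blue in LiKM on the normal diet (22 of 36 lie below 0 with library size alone), where the third library is the lowest of all 12 for 27 of 36 genes, and the 3 fibrinogen rows are red on ACR.

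LiKM and LiK fed the normal diet were compared first, to see how these genes stood where the strains differ and no drug was given. With TMM scaling 15 of the 36 fell in LiKM and 0 rose, while with library size alone 0 fell and 1 rose. A gene is called where edgeR's quasi-likelihood test gave an adjusted p under 0.05, with the Benjamini-Hochberg method over all 13880 genes tested. Of all genes tested, 8.61% fell and 13.2% rose in the same comparison with TMM scaling. The 15 came from every role except the central complement cascade. Of the 36, 35 lay below 0 with TMM scaling and 22 with library size alone, and the median log2 difference was -0.45 with TMM scaling against 0.02 over all genes. In TMM-scaled levels, the 3 LiKM libraries lay below the 3 LiK libraries without overlap for 22 members, where 19.4% of all genes did so, and above them for 1, Mbl2, where 20.7% of all genes did. In bulk tissue, fewer cells of a type and less RNA per cell cannot be told apart. Biliary markers moved with the strain, as all 10 rose in LiKM under either diet and either scaling. Their summed level was 35.4 to 53.0 CPM in LiK and 604 to 1029 CPM in LiKM without ACR. With ACR it was 36.4 to 185 CPM in LiK and 339.6 to 524 CPM in LiKM. None of the 10 was at 0 in all libraries of a group, and their part in the fall of the members was not tested. Of the 10 hepatocyte markers, 2 fell in LiKM without ACR with TMM scaling, and 1 fell with library size alone. All 10 lay below 0 with TMM scaling, as most members did, and the list's median with library size alone was -0.25. The LiKM libraries of Ass1, Ttr, Alb, Hpd, Cyp2e1, Cps1 and Pck1 all lay below those of LiK, while G6pc, Apoa1 and Tat overlapped. The summed TMM-scaled levels of the 10 hepatocyte markers did not overlap between the strains. The share of all counts taken by Alb, which is in this list, overlapped, at 8.01 to 10.9% in LiK and 8.15 to 8.28% in LiKM. Of 10 stellate cell markers 3 rose in LiKM without ACR, Pdgfrb (2.95-fold, adjusted p = 0.0229), Dcn (adjusted p = 0.0265) and Des (adjusted p = 0.0302), and 5 rose with library size alone. Ecm1 alone of the 10 lay below 0 with TMM scaling. Its LiKM libraries were all lower, and it did not pass (log2 difference -0.38, adjusted p = 0.171). Of 10 endothelial markers 1 rose, Lyve1 (2.55-fold, adjusted p = 0.0125), and 7 rose with library size alone. Kdr and Tek alone of this list lay below 0 with TMM scaling (log2 difference -0.08 and -0.14, adjusted p = 0.826 and 0.631), and their libraries overlapped. The summed levels overlapped between the strains, at 314 to 517 CPM in LiK and 364 to 692 CPM in LiKM for the stellate list and 226 to 354 CPM and 314 to 366 CPM for the endothelial list. No gene of these 3 lists was at 0 in all libraries of a group, and their part was not tested either.

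These counts rest on the scaling. With library size alone the members' median was -0.07, while the median of all genes moved to 0.40. Relative to the median of all genes, the members' median was -0.46 with TMM factors and -0.48 with library size alone. Of all genes called, 60.6% were higher with TMM factors and 97.6% with library size alone. The levels and calls in the following paragraphs are those with TMM scaling, so each fall is relative to the bulk of the genes. With library size alone none of the 15 passed the threshold and all 15 stayed below 0.

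**Figure D2:**
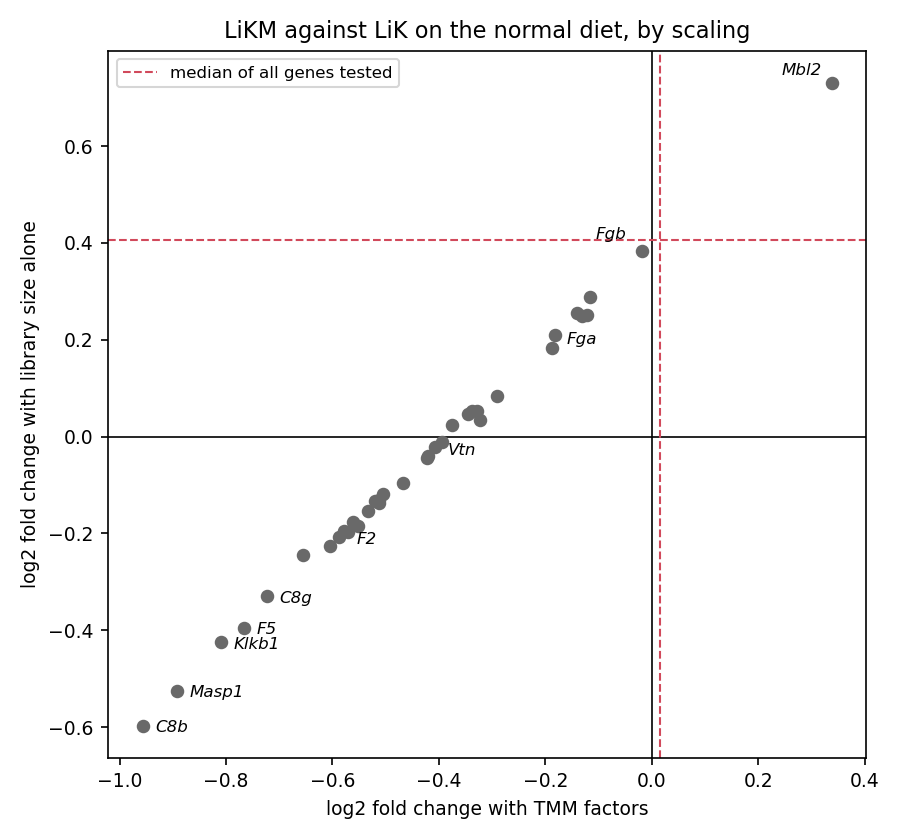
Log2 difference of each of the 36 genes (points) between LiKM and LiK on the normal diet with TMM factors (x axis) and with library size alone (y axis). Dashed lines give the median of all genes tested, 0.02 on the x axis and 0.40 on the y axis; every point but Mbl2 lies below and to the left of both.

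Of the 5 genes that start complement, 2 fell. Masp2, the protease of the lectin pathway that cleaves C4 and C2, stood at 269.9, 269 and 293 CPM in LiK and 170.2, 223 and 154 CPM in LiKM on the normal diet. Each LiKM mouse lay below each LiK mouse, and the level was 1.52-fold lower (log2 difference -0.60, SE 0.15, adjusted p = 0.0135). C1ra, a protease of the first complement component, stood at 371, 373 and 364 CPM in LiK and 261, 297 and 188 CPM in LiKM. The LiK mice were close to each other and all above the LiKM mice, a 1.49-fold lower level (log2 difference -0.57, SE 0.15, adjusted p = 0.0181), and without the first LiK library on the normal diet the call ended at an adjusted p of 0.0537. Masp1, a partner protease of the lectin pathway, had LiKM libraries at 83.7, 88.4 and 31.3 CPM, all below the LiK libraries at 129, 104 and 145 CPM, and did not pass (log2 difference -0.89, SE 0.30, adjusted p = 0.058). The mannose-binding lectin genes, whose products recognise sugars on microbes, did not pass either. Mbl2 alone of the 36 lay above 0 (log2 difference 0.34, SE 0.17, adjusted p = 0.172), with 327, 276 and 309 CPM in LiK and 434, 371 and 347 CPM in LiKM. With library size alone it was the 1 member that rose (log2 difference 0.73, adjusted p = 0.00513). Values of Masp2 were not whole numbers in 9 of 12 libraries, as arises where reads are shared among genes, so its level is uncertain.

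No gene of the central cascade passed. C3, the component on which all complement pathways meet, stood at 5689, 6073 and 7273 CPM in LiK and 7001, 6231 and 3478 CPM in LiKM on the normal diet. The groups overlapped, and the third LiKM library was far below the others. C4b and the alternative pathway protease gene Cfb had adjusted p-values of 0.0979 and 0.325, and both are uncertain, with values that were not whole in 9 of 12 libraries. Of the 3 inhibitor genes, Vtn fell. Its product vitronectin blocks pore formation, and its level ran from 2157 to 2383 CPM in LiK and from 1549.9 to 1907 CPM in LiKM, 1.33-fold lower (log2 difference -0.41, SE 0.13, adjusted p = 0.0491). The genes of the C4b-binding protein (C4bp) and of factor I (Cfi), which cleaves C3b and C4b, did not pass (adjusted p = 0.146 and 0.134).

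Of the 6 genes of the membrane attack complex, 2 fell, and both encode chains of C8. C8g, the gamma chain gene (mm10, chromosome 2, 25498651 to 25501719), stood at 301, 280.4 and 266 CPM in LiK and 146, 185 and 183 CPM in LiKM. The groups were well apart, with a 1.65-fold lower level in LiKM (log2 difference -0.72, SE 0.13, adjusted p = 0.00346), the smallest p of the 36. C8b, the beta chain gene on chromosome 4, stood at 424, 525 and 458 CPM in LiK and 245, 322 and 157 CPM in LiKM. Its libraries did not overlap but spread widely within LiKM, and the level was 1.94-fold lower (log2 difference -0.96, SE 0.25, adjusted p = 0.0212). The call for C8b ended without the second LiK library (adjusted p = 0.0575), without the third (0.0513) or without the first LiKM library (0.0547). The alpha chain gene C8a, next to C8b on chromosome 4, did not pass (log2 difference -0.42, SE 0.19, adjusted p = 0.141). Counts of C8b per count of C8a within a library, a ratio that no scaling changes, were 0.428, 0.531 and 0.393 in LiK and 0.317, 0.339 and 0.253 in LiKM, again without overlap. The ratio of C8g to C8a overlapped, at 0.304, 0.283 and 0.229 in LiK and 0.188, 0.195 and 0.295 in LiKM. C6, C9 and Hc, the mouse gene of C5, had adjusted p-values of 0.375, 0.112 and 0.114.

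Of the 4 vitamin K dependent procoagulant genes, 2 fell. F10, the gene of factor X, which cleaves prothrombin (mm10, chromosome 8, 13037308 to 13056676), stood at 420.3, 392 and 427 CPM in LiK and 278, 309 and 252 CPM in LiKM. The groups were far apart against their spread, and the level was 1.48-fold lower (log2 difference -0.56, SE 0.11, adjusted p = 0.00622). F10 is uncertain, with values that were not whole in all 12 libraries. F2, the prothrombin gene, stood at 1863, 1687 and 1804 CPM in LiK and 1229, 1357 and 1001 CPM in LiKM. Each LiKM mouse lay below each LiK mouse, a 1.49-fold lower level (log2 difference -0.58, SE 0.14, adjusted p = 0.015), and the call ended without the first LiK library (adjusted p = 0.0536). F9 and F7, the genes of factors that activate factor X, had log2 differences of -0.42 and -0.52 and adjusted p-values of 0.0576 and 0.0805.

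Among the 3 vitamin K dependent brakes, Proz fell. Protein Z is a cofactor in the inhibition of activated factor X, and its gene stood at 354, 328 and 392 CPM in LiK and 244, 282 and 188 CPM in LiKM. The third LiKM library was the lowest, the groups did not overlap, and the level was 1.50-fold lower (log2 difference -0.59, SE 0.17, adjusted p = 0.032). The genes of protein C (Proc, log2 difference -0.34, adjusted p = 0.058) and of its cofactor protein S (Pros1, -0.12, adjusted p = 0.707) did not pass. F5, the gene of the cofactor of factor X, fell 1.70-fold (log2 difference -0.77, SE 0.23, adjusted p = 0.0372), with values that were not whole in 9 of 12 libraries. Its level was 997 to 1196 CPM in LiK and 385 to 779 CPM in LiKM. When each of the 12 libraries was left out in turn, 4 calls held every time, those of C8g, F10, Klkb1 and Masp2. The calls of F5, F12 and Vtn ended in 6, 9 and 10 of the 12, with adjusted p-values up to 0.110, 0.136 and 0.140.

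In the contact system, which starts clotting on charged surfaces and releases bradykinin, 2 of 4 genes fell on the normal diet. Klkb1 encodes plasma prekallikrein, the protease that frees bradykinin and activates factor XII. It stood at 209.7, 196 and 229 CPM in LiK and 88.1, 159 and 115 CPM in LiKM without ACR. With ACR it stood at 259, 236 and 209 CPM in LiK and 128, 139.7 and 123 CPM in LiKM. On both diets each LiKM mouse lay below each LiK mouse. The level was 1.75-fold lower on the normal diet (log2 difference -0.81, SE 0.18, adjusted p = 0.00898) and 1.80-fold lower on ACR (log2 difference -0.85, SE 0.18, adjusted p = 0.0156). With library size alone the log2 difference of Klkb1 was -0.42 (adjusted p = 0.0590) on the normal diet and -0.74 (adjusted p = 0.0220) on ACR. F12, the gene of factor XII, ran from 488 to 543 CPM in LiK and from 328 to 441 CPM in LiKM without ACR, and fell (log2 difference -0.39, SE 0.13, adjusted p = 0.0458). Kng1, the gene of kininogen, from which bradykinin is cut, did not pass (adjusted p = 0.659) and is uncertain, with values not whole in 8 of 12 libraries.

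F11, the gene of factor XI, is a close relative of Klkb1 in sequence and its neighbour on chromosome 8 (mm10, F11 at 45241174 to 45262031 and Klkb1 at 45266689 to 45294859, both on the minus strand). F11 did not pass on either diet (log2 difference -0.38, SE 0.15, adjusted p = 0.104 on the normal diet, and log2 difference -0.34, adjusted p = 0.182 on ACR). Counts of Klkb1 per count of F11 within a library were 1.61, 2.27 and 1.85 in LiK fed normally and 1.95, 1.68 and 1.90 with ACR. In LiKM the ratio was 1.11, 1.61 and 1.37 without ACR and 1.27, 1.47 and 1.14 with it. On ACR the LiKM ratios all lay below the LiK ratios. Without ACR they overlapped by a single library, the highest of LiKM being level with the lowest of LiK. The 250 bases before the RefSeq start of both genes, read along each gene in GRCm38.p6, are shown because the neighbours differed in their calls. Capitals mark letters that match TTGCNNAA, the C/EBP motif, on either strand. The windows are chr8:45294836-45295085 for Klkb1 and chr8:45262032-45262281 for F11, both on the minus strand. The annotation used for mm10 places the start of Klkb1 further upstream, inside the window shown.
Klkb1: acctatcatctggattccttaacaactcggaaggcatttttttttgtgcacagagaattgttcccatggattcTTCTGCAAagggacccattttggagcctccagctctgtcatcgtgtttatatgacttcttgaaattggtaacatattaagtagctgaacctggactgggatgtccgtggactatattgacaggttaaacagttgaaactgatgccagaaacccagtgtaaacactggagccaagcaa
F11: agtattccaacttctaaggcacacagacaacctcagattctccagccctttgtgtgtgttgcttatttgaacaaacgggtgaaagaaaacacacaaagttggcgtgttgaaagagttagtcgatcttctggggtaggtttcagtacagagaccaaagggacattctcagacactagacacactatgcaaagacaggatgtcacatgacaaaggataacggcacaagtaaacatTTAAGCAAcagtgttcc
Each window holds 1 match, at -177 to -170 in Klkb1 and at -17 to -10 in F11, counted back from the start.

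**Figure D3:**
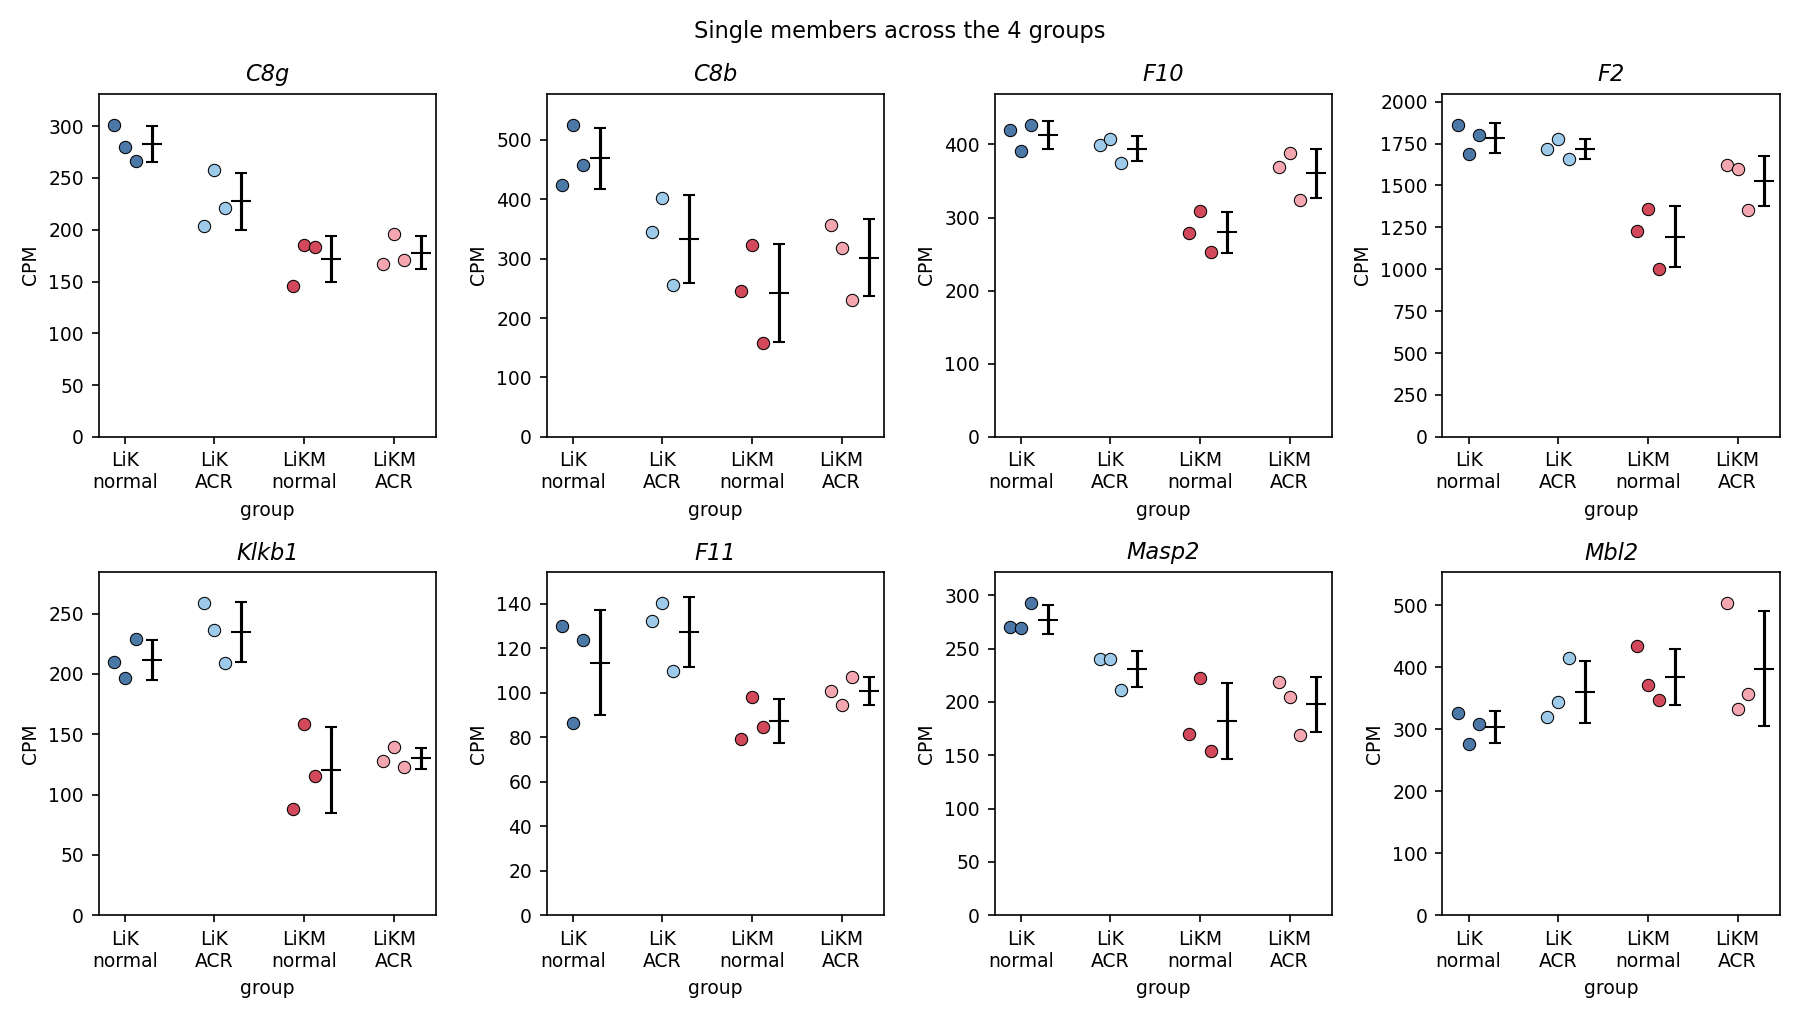
CPM (y axis, from 0) of 8 genes in the 4 groups (x axis); each point is 1 mouse, and the black bar to its right gives the mean and SD of the 3 mice. With TMM scaling C8g, C8b, F10, F2, Masp2 and Klkb1 are lower in LiKM on the normal diet (none passes with library size alone), and Klkb1 is also lower in LiKM on ACR. F11 overlaps between strains on the normal diet. Mbl2 lies higher in LiKM on that diet without passing the threshold, and passes with library size alone.

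Of the genes of fibrin and its cross-linking, F13b fell. It encodes the carrier subunit of factor XIII, which cross-links fibrin, and stood at 195, 187 and 204 CPM in LiK and 128, 168 and 109.8 CPM in LiKM. The groups did not overlap, and the level was 1.45-fold lower (log2 difference -0.53, SE 0.14, adjusted p = 0.0229). The 3 fibrinogen chain genes did not pass, with adjusted p-values from 0.591 to 0.959 and libraries that overlapped between strains. Both genes of fibrinolysis fell. Plg, the gene of plasminogen, whose active form dissolves fibrin, stood at 2540.1, 2188 and 2716 CPM in LiK and 1691, 2049.7 and 1503 CPM in LiKM. Cpb2 encodes a carboxypeptidase that slows fibrin removal, and stood at 333, 332 and 372 CPM in LiK and 241, 278 and 209 CPM in LiKM. In both genes the LiKM mice lay below the LiK mice, by 1.42-fold for Plg (log2 difference -0.51, SE 0.15, adjusted p = 0.0343) and 1.43-fold for Cpb2 (log2 difference -0.51, SE 0.15, adjusted p = 0.0271). Hgfac stood at 404, 224 and 309 CPM in LiK and 199, 193 and 204 CPM in LiKM. The LiK mice varied widely while the LiKM mice were alike and lower, a 1.57-fold difference (log2 difference -0.65, SE 0.18, adjusted p = 0.0224). Without the first LiK library, the highest, the log2 difference of Hgfac was -0.43 (adjusted p = 0.0914). The calls of F13b, Proz and Cpb2 each ended without the first or the third LiK library or the first or the third LiKM library on the normal diet, as did that of Plg, which also ended without the second LiK library on ACR. That of Hgfac also ended without the third LiK library or the first or the second LiKM library.

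The third LiKM library on the normal diet was the lowest of all 12 for 27 of 36 members, and also one of the 3 that stood apart in clock genes. Without it 9 members fell and the median was -0.34. Without the 3 libraries 12 fell, 11 of them among the 15. The count was 5 without the first LiK library on the normal diet, 6 without the third and 7 without the first LiKM library. LiKM mice with the same number deviated together between the diets, although no pairing is stated in the titles. With their number as a block, chosen after the data were seen, 24 members fell, the 15 included. The sample identifiers start with KM or MP, and 2 of the 3 LiK mice on the normal diet are MP, as is the third LiKM mouse on ACR. Among KM mice alone LiK on the normal diet is a single library, the first, which was assumed to vary like the other groups and held the highest Hgfac level of the 3 LiK mice. There 2 members fell, C8g and Hgfac, and the median was -0.45. With the prefix as a covariate 16 fell.

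Between the strains fed ACR, 1 member fell in LiKM, Klkb1, and 0 rose, where 4.24% of all genes fell and 5.55% rose. Klkb1 was also the 1 member called with library size alone. The median log2 difference of the members was -0.11 against 0.02 over all genes, and 27 of 36 lay below 0 (19 of 36 with library size alone, median -0.00). With library size alone 77.9% of all genes called were higher, against 56.7% with TMM factors. The LiKM libraries lay below the LiK libraries without overlap for 10 members, where 16% of all genes did so, and above them for 0 members, where 17.2% did. The 10 were Klkb1, C8g, Masp1, Hgfac, F11, F13b, F5, F12, F2 and C1ra. C8g stood at 203, 258 and 221 CPM in LiK and 167, 196 and 170.3 CPM in LiKM (adjusted p = 0.101). The call of Klkb1 ended without the first LiK library on ACR (adjusted p = 0.0544) or the second (0.0584), among KM mice alone (0.0739) and without the 3 libraries that stood apart in clock genes (0.125), with log2 differences from -0.94 to -0.78 when 1 library was left out. With the LiKM number as a block 5 members fell on ACR, which were Klkb1, C8g, Masp1, F5 and F13b.

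**Figure D4:**
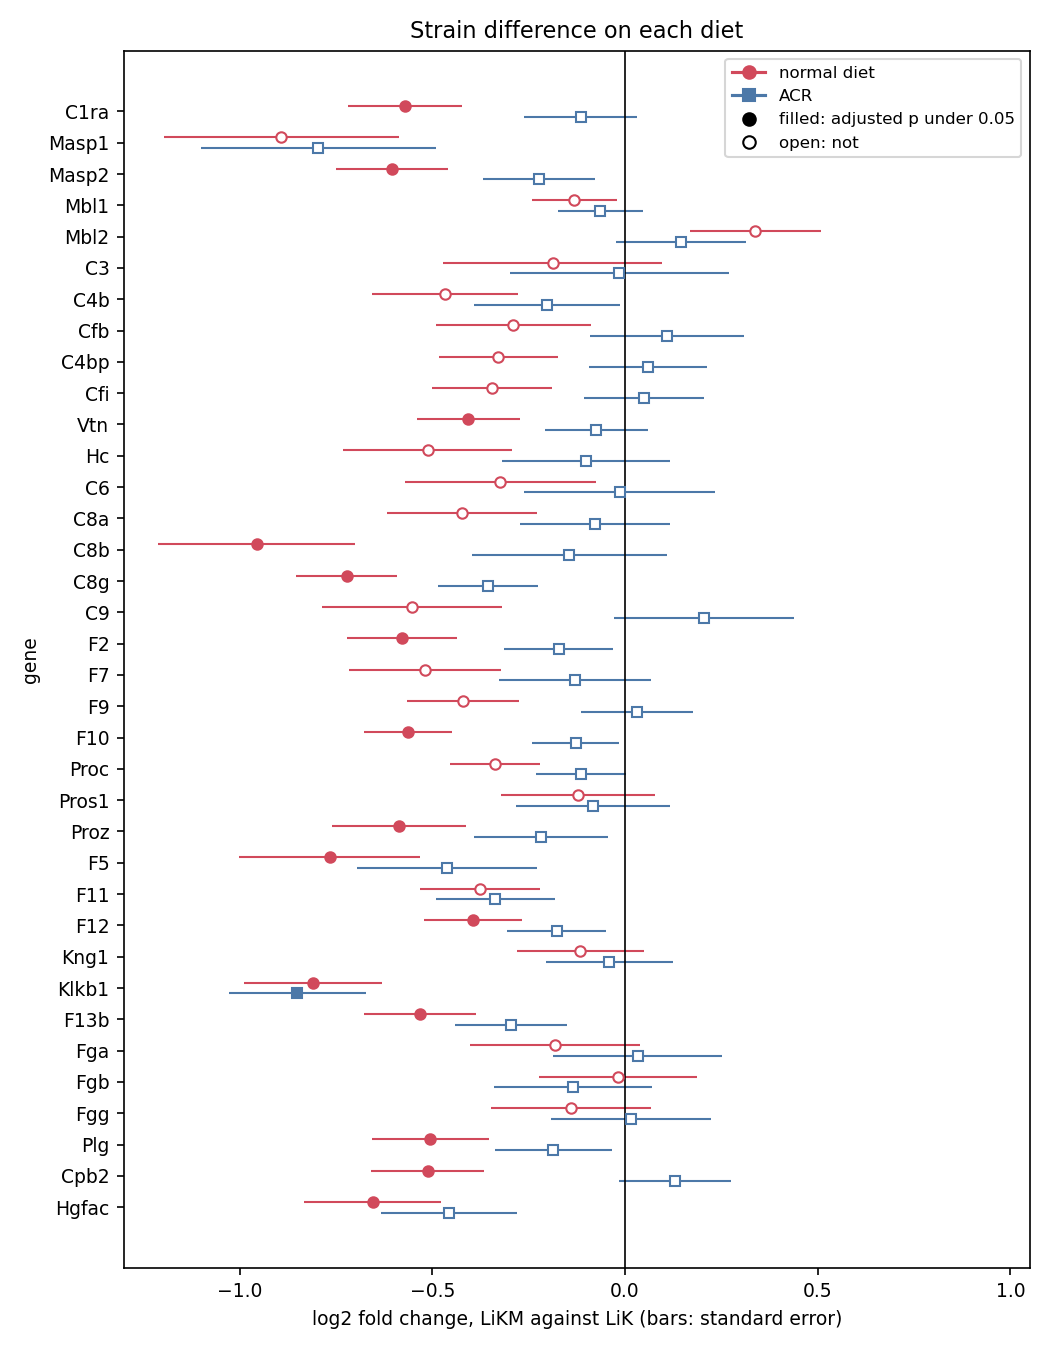
Log2 difference between LiKM and LiK for each of the 36 genes on the normal diet (red circles) and on ACR (blue squares), with TMM scaling; bars are standard errors, and filled symbols have an adjusted p under 0.05 in edgeR's quasi-likelihood test. On the normal diet 15 symbols are filled and 35 of 36 lie left of 0 (none of the 15 passes, and 22 lie left of 0, with library size alone); on ACR 1 is filled, Klkb1.

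The difference of the 2 diet effects, which tests whether the strain gap depends on the diet, called 0 members, where 0.0072% of all genes were called. At an unadjusted p under 0.05 there were 6 members, Cpb2, F10, C9, C8b, C1ra and F9, where 11.5% of all genes were, and DESeq2 called 0. Cpb2 had the smallest p (log2 difference 0.64, SE 0.21, adjusted p = 0.292), with 316, 306 and 262 CPM in LiK and 376, 319 and 273 CPM in LiKM on ACR. The members' median was 0.31 with TMM factors and 0.05 with library size alone, where the medians of all genes were -0.02 and -0.29. Thus none of the 36 had a strain difference that was shown to depend on the diet.

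The comparison of ACR with the normal diet asks what the retinoid does within each strain. In LiK 0 members were called, where 0.195% of all genes were, with 4 members at an unadjusted p under 0.05 (14.1% of all genes) and 1 called by DESeq2, Fgb. The members' median was -0.04 with TMM factors and 0.08 with library size alone, where the medians of all genes were 0.01 and 0.13. In TMM-scaled levels, the 3 fibrinogen chains were the only members in LiK whose ACR libraries all lay above those of the normal diet. Of all genes, 13.4% did so. Another 7 members lay below without overlap (C8g, C8b, C9, Masp2, Cpb2, F9 and C1ra), where 14.6% of all genes did. Fga stood at 4019, 3269 and 3886 CPM without ACR and 5420.0, 5806 and 4401 CPM with it. Fgb, the beta chain gene, stood at 3601, 3165 and 3352 CPM without ACR and 6051, 5758 and 4189.7 CPM with it. Fgg stood at 2847, 2505 and 2696 CPM and 4178, 4149 and 2902 CPM likewise. In each chain the third ACR library was the lowest of its group and still above the normal diet. Fgb was 1.58-fold higher (log2 difference 0.66, SE 0.21, adjusted p = 0.194), Fgg 1.40-fold (log2 difference 0.48, SE 0.21, adjusted p = 0.328) and Fga 1.40-fold (log2 difference 0.48, SE 0.22, adjusted p = 0.353), none past the threshold. Fgb passed in DESeq2 (adjusted p = 0.0321), with only the 2 LiK groups in the fit (0.0464) and with the LiKM number as a block (0.0358).

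In LiKM 0 members were called between the diets, as were 0 of all genes tested, with 10 members at an unadjusted p under 0.05 (7.24% of all genes) and 0 called by DESeq2. Fga stood at 4219, 2937 and 2689 CPM without ACR and 4774, 4418 and 6789.9 CPM with it. Fgb stood at 3643, 2757 and 3587 CPM without ACR and 4645, 3861 and 6070.4 CPM with it. Fgg stood at 2889, 2115 and 2297 CPM and 3364, 3171 and 4819.9 CPM likewise. The third ACR library was the highest for all 3 chains. In TMM-scaled levels no LiKM mouse on ACR was below a LiKM mouse on the normal diet for any chain. As a share of all counts the 3 chains together overlapped between the diets, at 0.841 to 1.22% without ACR and 1.14 to 1.97% with it. Fga was 1.62-fold higher (log2 difference 0.70, SE 0.22, adjusted p = 0.448), Fgg 1.56-fold (adjusted p = 0.464) and Fgb 1.46-fold (adjusted p = 0.554). In all, 10 members had TMM-scaled levels above the normal diet without overlap, where 3.94% of all genes did, and 0 lay below, where 6.7% did. The 10 were the 3 chains, F10, Plg, Cfi, Vtn, Hgfac, Kng1 and C4b. The members' median was 0.28 against -0.01 over all genes with TMM factors (0.14 against -0.16 with library size alone), and 0.11 without the third library on the normal diet or 0.19 without the first on ACR. Markers moved in the same comparison, as all 10 biliary markers lay lower on ACR without overlap and none passed the threshold. Their summed levels are those given above for LiKM, and the log2 difference was -1.75 for Krt19 (adjusted p = 0.141) and -2.15 for Cftr (adjusted p = 0.142). Of the 10 hepatocyte markers all lay above 0 with TMM scaling, and Alb lay higher without overlap (1.52-fold, adjusted p = 0.537). Of the 10 Kupffer cell and macrophage markers 6 lay higher without overlap. The part of these markers in the levels of the members was not tested.

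Averaged over both strains in the same fit, a comparison added after the values were seen, 0 members were called where 0.0288% of all genes were, with 6 members at an unadjusted p under 0.05 (10.1% of all genes). The fibrinogen chains were 1.52-fold (Fgb, log2 difference 0.60, SE 0.15, adjusted p = 0.276), 1.51-fold (Fga, adjusted p = 0.299) and 1.47-fold (Fgg, adjusted p = 0.299) higher on ACR. DESeq2 called all 3, with adjusted p-values of 0.00518 for Fgb, 0.0185 for Fgg and 0.0192 for Fga, and edgeR with the LiKM number as a block called Fgb alone (0.0384). The direction of each chain was the same under every scaling tried. As a share of all counts the 3 chains took 0.847 to 0.869% in LiK without ACR and 1.12 to 1.52% with it, and 0.841 to 1.22% and 1.14 to 1.97% in LiKM. Among KM mice alone the log2 differences were 0.46 for Fgb, 0.43 for Fga and 0.41 for Fgg. The shares overlapped between diets in LiKM and not in LiK.

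Counts of Fga per count of F2 within a library, which no scaling changes, were 2.16, 1.94 and 2.15 in LiK without ACR and 3.15, 3.26 and 2.65 with it. In LiKM the ratio was 3.43, 2.17 and 2.69 without ACR and 2.94, 2.76 and 5.02 with it. The ratios did not overlap between diets in LiK and overlapped in LiKM. C3 stood at 7993, 9082 and 6471 CPM in LiK and 10681, 6745 and 5884 CPM in LiKM on ACR, and overlapped with the normal diet in both strains (log2 difference 0.31, SE 0.28, adjusted p = 0.649 in LiK, and log2 difference 0.48, adjusted p = 0.824 in LiKM).

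**Figure D5:**
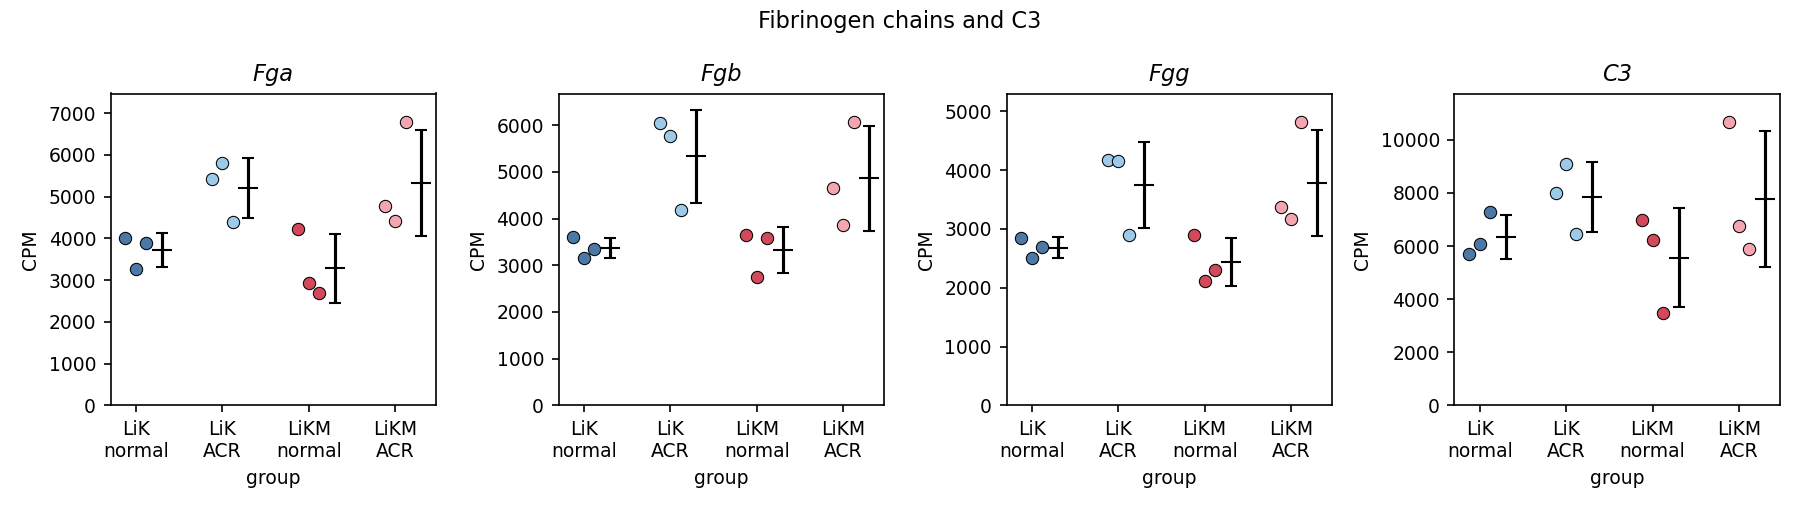
CPM (y axis, from 0) of the 3 fibrinogen chain genes and C3 in the 4 groups (x axis); each point is 1 mouse, and the black bar to its right gives the mean and SD of 3 mice. With TMM scaling the ACR mice of a strain lie above the normal diet mice of that strain for each chain, while C3 overlaps. The share of all counts taken by the 3 chains together overlaps between the diets in LiKM.

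The 3 chain genes sit within one stretch of chromosome 3 (mm10, Fgg at 83007724 to 83015049, Fga at 83026076 to 83033627 and Fgb at 83040141 to 83049863, the last on the minus strand). Their upstream windows are shown because the 3 levels lay the same way by diet in both strains. Each is the 250 bases before the RefSeq start in GRCm38.p6, read along the gene. They are chr3:83025903-83026152 (plus) for Fga, chr3:83049864-83050113 (minus) for Fgb and chr3:83007474-83007723 (plus) for Fgg. The annotation used for mm10 places the start of Fga further upstream, inside the window shown. Capitals mark matches, on either strand, to TTCNNNGAA (STAT), TTGCNNAA (C/EBP), GTTAATNAT (HNF1) and AGGTCA (the half-site of nuclear receptors such as those for retinoids).
Fga: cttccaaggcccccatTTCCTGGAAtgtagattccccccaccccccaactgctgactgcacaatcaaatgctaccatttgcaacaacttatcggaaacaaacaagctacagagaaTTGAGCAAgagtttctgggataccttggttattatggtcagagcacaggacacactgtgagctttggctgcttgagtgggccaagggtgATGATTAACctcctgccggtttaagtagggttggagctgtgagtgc
Fgb: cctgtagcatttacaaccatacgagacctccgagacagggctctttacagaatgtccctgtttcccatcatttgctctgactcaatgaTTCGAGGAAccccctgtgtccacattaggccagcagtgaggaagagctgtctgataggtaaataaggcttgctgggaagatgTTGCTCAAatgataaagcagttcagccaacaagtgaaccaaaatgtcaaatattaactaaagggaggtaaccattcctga
Fgg: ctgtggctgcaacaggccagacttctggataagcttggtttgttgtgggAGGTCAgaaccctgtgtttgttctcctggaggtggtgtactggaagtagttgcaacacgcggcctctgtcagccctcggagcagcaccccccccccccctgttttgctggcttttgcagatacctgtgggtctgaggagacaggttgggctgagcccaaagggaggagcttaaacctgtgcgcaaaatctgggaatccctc
Fga holds a STAT match at -234 to -226, a C/EBP match at -135 to -128 and an HNF1 match at -46 to -38. Fgb holds a STAT match at -162 to -154 and a C/EBP match at -80 to -73, and Fgg holds a half-site match at -201 to -196. These matches are letters in a window and no evidence of binding.

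The motifs were searched in 300 bases (250 before to 50 after the start) for the 29 members with a RefSeq promoter, which gave 30 windows since 1 gene has more than 1. Not found in the promoter table were C4b, Cfb, Cfi, Masp1, Plg, Proc and Kng1. The STAT motif was in 9 of 29 members and 8.30% of the 32851 promoters of the table, and the C/EBP motif in 9 of 29 and 10.8%. The HNF1 motif was in 5 of 29 (Hc, C4bp, F13b, Fga and Hgfac) and 0.801% of all. The half-site was in 11 of 29 and 16.3% of all. The letters CACGTG, the E-box that clock factors bind, and CAAAGTCCA, an HNF4 motif, were in 0 of 29 members and in 7.15% and 0.475% of all promoters.

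Other genes of both pathways went several ways in LiKM without ACR. Of 26 other complement genes tested, 2 rose and 5 fell with TMM scaling, and 6 rose and 0 fell with library size alone. C1rl and Cd59a, the gene of an inhibitor of pore formation, fell by 0.55 and 0.50 on the log2 scale (adjusted p = 0.00452 and 0.00973), and Cfhr2, a relative of complement factor H, fell by 0.63 (adjusted p = 0.00433). C1rb, a near-identical copy of C1ra, fell too. Reads of such copies may have been split between them, so C1ra, C1rb and Cfhr2 are uncertain. The 2 that rose were C1qb and C1qc, chains of C1q, which macrophages make. On ACR 4 rose (C3ar1, C1qa, C1qb and C1qc) and 2 fell (C1rl and Cd59a), or 4 and 0 with library size alone. C1qb stood at 19.0, 38.8 and 25.6 CPM in LiK and 55.1, 65.1 and 45.6 CPM in LiKM on the normal diet. The summed level of 10 Kupffer cell and macrophage markers was 152 to 308 CPM in LiK and 191 to 375 CPM in LiKM there, which overlap. Of the 10, Ccr2, the gene of a chemokine receptor of monocytes, rose in LiKM on the normal diet (4.41-fold, adjusted p = 0.0172) and on ACR (4.30-fold, adjusted p = 0.0313), and with library size alone 3 and 1 of the 10 rose. The LiKM libraries of Csf1r lay above the LiK libraries on both diets, and Csf1r did not pass (adjusted p = 0.130 and 0.253). Cd163 and Timd4 alone of the 10 lay below 0 on the normal diet (log2 difference -0.75 and -0.18, adjusted p = 0.348 and 0.782). None of the 10 was at 0 in all libraries of a group, and their part in the C1q levels was not tested.

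Of 26 other coagulation and fibrinolysis genes, 8 rose and 2 fell in LiKM without ACR, or 11 and 0 with library size alone. F2rl1, the gene of a receptor cut by proteases, stood at 0.141, 0.17 and 0.419 CPM in LiK and 4.02, 4.01 and 5.73 CPM in LiKM (adjusted p = 0.000153). It was barely counted in LiK and rose in all 3 LiKM mice. Anxa2, which binds plasminogen and its activator on cells, rose as well (log2 difference 2.08, SE 0.29, adjusted p = 0.00102), as did Thbs1 (log2 difference 2.48, adjusted p = 0.00949) and Plat, the gene of tissue plasminogen activator (2.61, adjusted p = 0.012). The other 4 were Plau, Plaur, S100a10 and Tfpi. The 2 that fell were Serpinc1, the antithrombin gene, and Serpind1, the gene of heparin cofactor II. Serpinc1 stood at 1936, 1735 and 1882 CPM in LiK and 1370.3, 1493 and 1253 CPM in LiKM. On ACR 4 rose, Anxa2, F2rl1, Thbs1 and Plat, and 0 fell, with the same counts under either scaling.

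Of 28 other hepatocyte plasma protein genes, 7 fell and 0 rose in LiKM without ACR, with a median of -0.37, while with library size alone 2 fell and 1 rose and the median was 0.02. On ACR 0 were called under either scaling. Serpinf1 (-0.52, adjusted p = 0.00597) and the alpha-1-antitrypsin gene Serpina1d (-0.89, adjusted p = 0.0102) had the smallest p, the latter in a family of near-identical copies and so uncertain. Of 12 genes of the vitamin K cycle and of factor export, 2 fell with TMM scaling, each on a single diet. Vkorc1l1 fell on the normal diet (log2 difference -0.37, SE 0.12, adjusted p = 0.0463). Furin, a protease that trims proproteins, fell on ACR (log2 difference -0.40, SE 0.11, adjusted p = 0.0465). With library size alone 2 of the 12 rose and 0 fell on the normal diet, and 0 were called on ACR. Of 27 genes of liver transcription factors and cytokine receptors, Creb3l3, Atf6 and Rxra fell and 1 other gene rose without ACR, while with library size alone 4 rose and 0 fell. Rxra, a partner of retinoid receptors, had a log2 difference of -0.47 (adjusted p = 0.0169) there and -0.70 (adjusted p = 0.00744) on ACR, where Atf6, Creb3l3, Dbp and Cebpa fell too (4 genes of the list fell with library size alone).

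Among 21 acute phase genes, 2 rose on ACR in LiK and 0 in LiKM. They were Lbp, the gene of the lipopolysaccharide binding protein, at 39.0, 45.1 and 47.5 CPM without ACR and 89.4, 121 and 73.2 CPM with it (log2 difference 1.11, SE 0.16, adjusted p = 0.02), and Il1rn, which blocks the interleukin-1 receptor (log2 difference 2.19, SE 0.32, adjusted p = 0.0201). In LiKM Lbp stood at 52.7, 49.9 and 48.3 and 69.0, 72.4 and 60.1 CPM, with no overlap and an adjusted p of 0.556. The major acute phase gene Saa1 varied widely within groups, from 27.9 to 405 CPM in LiK without ACR and from 58.4 to 179.8 CPM with it. In LiKM it ran from 26.9 to 401 CPM without ACR and from 59.4 to 368 CPM with it. The groups overlapped. Il6ra, the interleukin-6 receptor gene, stood at 46.3, 47.6 and 54.0 CPM in LiK without ACR and 24.9, 20.2 and 27.7 CPM with it, and did not overlap (adjusted p = 0.356). The part of these genes in the fibrinogen levels was not tested.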

How the data were processed

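The deposited table holds expected counts for each gene symbol and library, values that need not be whole. Of those above 0, 18.9% are not whole. featureCounts 2.0.0 and the build mm10 are named in the submitters' processing notes. The aligner, the annotation and the options for shared reads and strand were not given in the sources used, so near-identical copies and overlapping or antisense genes are not separated with certainty. RNA came from a stranded mRNA kit, per the labels' protocols. Each library was placed in its group by its title, and 0 value columns were left unmatched.

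Counts were rounded to whole numbers. Genes were filtered with filterByExpr, which kept 13880 of 24421 (5382 were at 0 throughout), and scaled with TMM. Libraries of a group differed by more than counting error in every pair (15.8 to 68.1 as chi-square over its degrees of freedom). Tests were done with edgeR 4.0.16 (limma 3.58.1, R 4.3.3), by its quasi-likelihood method with robust estimation on all 12 libraries with 1 coefficient per group. The Benjamini-Hochberg adjustment ran over all genes tested, with a threshold of 0.05. The biological coefficient of variation was 0.203 in common, and totals of 10124813 to 18647156 counts set the counting precision. DESeq2 1.42.0 and other scalings, filters, covariates and left-out libraries were alternatives. The test was also run on simulated counts, with the same spread for every gene and as many genes raised as lowered. That setting has no shift between scalings and no library that stands apart, so it does not bear on those limits. A few genes and an allele are not reported here.

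No pairing of mice is stated in the titles, and mice with the same replicate number deviated together in LiKM only. Deviations from the group means of mice with the same number correlated between the diets at 0.367, 0.217 and 0.485 in LiKM and at 0.023, -0.052 and -0.0717 in LiK, and across strains at -0.101 to 0.0768. The block fit that is printed beside results uses the LiKM numbers alone, and was added after the data were seen. It rests on these correlations in the same data and not on a stated design.

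The 36 members and the other lists were chosen with earlier results of these data known. Values per library are given for the 12 members of smallest p in LiKM against LiK on the normal diet, the fibrinogen chains and C3. Others were named after their values were seen. Promoters come from RefSeq (GRCm38.p6) and gene positions from the GENCODE annotation of mm10. Lists under library size alone were also counted after the data were seen.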

Additional observations from a re-analysis of the deposited data

How the results depend on the processing

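With library size alone, members called on the normal diet went from 15 to 1 (Mbl2, higher) and all genes called from 3031 to 4831. All genes called became 16 for the difference of the diet effects and 7 for the mean diet effect (7 with RLE factors, 8 with no filter on low counts, where the difference gave 2).

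DESeq2 called 1 member for diet in LiK and 3 for the mean diet effect, and of all genes 2150 between strains on ACR, 397 and 79 for diet in LiK and LiKM, 160 for the difference and 104 for the mean. With only the groups compared in the fit, members called were 5 between strains on the normal diet, 2 on ACR and 1 for diet in LiK, where 812 genes were called.

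With the replicate block within LiKM only, members called between strains were 24 on the normal diet and 5 on ACR, with 1 for diet in LiK and 1 for the mean. All genes called were then 2473 on ACR, 701 and 9 for diet in LiK and LiKM, 260 for the difference and 112 for the mean. A replicate block was also set within each strain, although LiK mice with the same number did not deviate together. It gave 20 members on the normal diet and 2 on ACR, and 2181, 551, 7, 146 and 65 genes in the same order. For the 15 members, Klkb1 on ACR and the diet effects on fibrinogen and C3, the blocks ended no call and added only those of Fgb given above.

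Among KM mice alone, 2 members and 1038 genes were called on the normal diet, 0 members and 535 genes on ACR, and 0 genes for diet in LiK, the difference and the mean. With the prefix as a covariate 16 genes were called for diet in LiK and 0 for the difference. Without the 3 LiKM libraries that stood apart in clock genes, 0 members and 555 genes were called on ACR, 624 and 1 genes for diet in LiK and LiKM, 15 for the difference and 12 for the mean.

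Leaving out 1 library at a time, members called ranged from 5 to 18 on the normal diet, from 0 to 2 on ACR and were 0 for every diet comparison. All genes called ranged from 1658 to 3384 between strains on the normal diet, from 312 to 1695 on ACR, from 0 to 108 for diet in LiK, from 0 to 5 in LiKM, from 0 to 20 for the difference and from 3 to 18 for the mean. Where a group kept 1 or 2 mice, these were assumed to vary like the other groups. With Alb out of the total, the members' share rose to 3.86% in LiK without ACR and 4.91% with it, and to 4.00% in LiKM without ACR and 5.06% with it. The cause of these changes was not tested.

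No call of the 15 members or of Klkb1 on ACR, and no diet effect on fibrinogen or C3, changed direction under any alternative. With 1 library left out, 53 values lost their call, all of them for the 15 members or Klkb1 on ACR. The 283 that did not include every diet effect on fibrinogen and C3. Those effects were not called in the main fit and had no call to lose, so 53 against 283 does not measure how stable the calls were. Over all genes, libraries of a group differed by more than counting error.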
